A study of Mus musculus with 16 samples.

Results

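This account covers the CC chemokine ligand genes Ccl2, Ccl5, Ccl7, Ccl8, Ccl9, Ccl11 and Ccl20, which are 7 of the 56941 genes in the deposited count table, and were taken from it by their gene symbols. The libraries were made from primary murine gingival fibroblasts (mGF), grown out of the gum around the maxillary second molar of wild-type C57Bl6 mice aged 3 to 6 months and used at passages 2 to 8 in medium with 20% fetal bovine serum. After 24 h, 4 conditions of 4 libraries each were compared. The control condition, BSA (control), received the albumin carrier alone. The others received IL-1β, an inflammatory cytokine, at 1 ng/mL, the saturated fatty acid palmitate at 200 μM on BSA, or palmitate + IL-1β at those doses. The labels do not say whether the libraries came from separate animals or cultures, so the p-values measure the spread between libraries, which may be technical. The study used these conditions to ask how metabolic and inflammatory stress act on the fibroblasts singly and together.

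CC chemokines are small secreted proteins named for a pair of adjacent cysteines near the amino terminus. They are held on heparan sulfate at cell surfaces and in matrix, and they attract leukocytes that carry G protein-coupled CC receptors. Fibroblasts of the gingiva are a known source of them when bacterial products or cytokines reach the connective tissue, and many of their genes are switched on through NF-κB and, in part, through interferon-regulated factors.

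Of the 7 genes, 6 lie on chromosome 11 and 1, Ccl20, lies on chromosome 1 (GRCm39). Ccl2 (chr11:81926397-81928279), Ccl7 (chr11:81936532-81938351), Ccl11 (chr11:81948618-81953781) and Ccl8 (chr11:82006007-82007625) are read on the forward strand within 81.2 kb, and 8.25 kb separate Ccl2 from Ccl7. Ccl5 (chr11:83416602-83425942) and Ccl9 (chr11:83463745-83473161) lie farther along on the reverse strand, with 37.8 kb between them. Ccl20 occupies chr1:83094487-83096888 on the forward strand. No exon of the 7 overlapped an exon of another annotated gene on either strand. Exact stretches of 50 bases from 1 annotated transcript per gene were sought in the annotated transcripts of other genes. Only Ccl9 had such matches, in 2.63% of its stretches. Copies with mismatches and exons outside that transcript were not examined.

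The coding sequence around the cysteine pair is shown for each gene because it is the feature that defines the family. Each line is 30 bases of the annotated coding sequence, read 5′ to 3′ on the gene's own strand, and capitals mark the codons of the adjacent cysteines.
Ccl2: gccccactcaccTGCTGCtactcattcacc
Ccl7: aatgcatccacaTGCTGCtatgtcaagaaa
Ccl8: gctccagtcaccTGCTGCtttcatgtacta
Ccl11: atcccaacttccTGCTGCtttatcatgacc
Ccl5: gacaccactcccTGCTGCtttgcctacctc
Ccl9: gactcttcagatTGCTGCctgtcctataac
Ccl20: agcaactacgacTGTTGCctctcgtacata
The capitals lie at chr11:81927332-81927337 in Ccl2, chr11:81937364-81937369 in Ccl7, chr11:82006882-82006887 in Ccl8 and chr11:81952522-81952527 in Ccl11. They lie at chr11:83420068-83420073 in Ccl5, chr11:83466752-83466757 in Ccl9 and chr1:83095534-83095539 in Ccl20. The pair fell within exon 2 in 6 genes and within exon 3 of Ccl9, and it was the only adjacent cysteine pair in each coding sequence. Ccl20 differed from the others in using TGT for the first cysteine. The coding sequences of Ccl7 and Ccl11 were the most alike of the 21 pairs, at 66.3% identity, followed by Ccl7 and Ccl8 at 63.7%. Ccl2 and Ccl5 were the least alike, at 40.9%. Neighbours Ccl2 and Ccl7 shared 47.2%.

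Gene counts ranged from 21234789 to 92752515 per library, and the highest total outside palmitate replicate 10 was 35329711. Levels are given as CPM, the count relative to a library size scaled by the TMM method, and 3 counts in a library corresponded to 0.0331 to 0.146 CPM. Fibroblast markers had a summed level of 24210 to 28353 CPM over 9 genes, of which Fap had means of only 13.1 to 17.2 CPM. Leukocyte markers summed to 1.41 to 2.34 CPM over 12 genes, of which 5 or 6 were at 0 counts in each condition. Csf1r, a macrophage receptor gene with means of 1.25 to 1.82 CPM, made up most of that sum, and the pan-leukocyte gene Ptprc had at most 7 counts in a library. Keratinocyte markers summed to 0.761 to 2.01 CPM over 8 genes and endothelial markers to 1.93 to 2.75 CPM over 6 genes. The leukocyte sum ranged from 1.42 to 1.91 CPM in BSA (control), from 1.41 to 1.73 CPM with palmitate and from 1.64 to 2.02 CPM with both agents, while with IL-1β it ranged from 2.03 to 2.34 CPM, above all BSA (control) libraries. Its part in the differences between IL-1β and BSA (control) below was not tested. In bulk RNA, a change in the number of expressing cells and a change in RNA per cell cannot be told apart.

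Differences are log2 fold changes or fold changes fitted by edgeR to all 16 libraries at once and tested by its quasi-likelihood method. P-values carry a Benjamini-Hochberg adjustment over the 16306 genes that passed a filter on low counts, and changes with an adjusted p under 0.05 count as called. Of the 9 fibroblast markers, 4 were called lower and 1 higher with palmitate against BSA (control), beside 17.5% and 19.8% of all tested genes. With IL-1β 1 was lower and 2 higher, beside 4.97% and 10.1%. With both agents 6 were lower and 1 higher, beside 22.5% and 24.8%. All 7 members passed the filter. Ccl2, Ccl7, Ccl8 and Ccl9 were over its cutoff of 0.358 CPM in all 16 libraries. Ccl5 was over it in 2 of the 4 BSA (control) libraries, Ccl11 in 3 and Ccl20 in 0, where 4 libraries over the cutoff in all were needed. Ccl5 and Ccl20 thus passed through conditions in which they were higher, while Ccl11 had 3 more libraries over it with IL-1β. Counts of members that include Ccl5 and Ccl20 are descriptive.

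Ccl2 and Ccl7 are monocyte chemoattractants. Ccl2 acts mainly through Ccr2 and draws monocytes into inflamed tissue. In the 4 BSA (control) libraries Ccl2 stood at 20.2, 19.4, 15.9 and 25.3 CPM. With IL-1β it stood at 132, 108, 116 and 97.4 CPM, with palmitate at 328, 341, 338 and 364 CPM, and with both agents at 377, 374, 405 and 393 CPM. The 4 conditions did not overlap in any pair. The log2 fold change was 2.49 (SE 0.12) for IL-1β against BSA (control) and 4.08 (SE 0.12) for palmitate, with adjusted p of 2.2e-09 and 1.4e-12. Palmitate + IL-1β exceeded palmitate by 1.13-fold (95% interval 0.970 to 1.31), at an adjusted p of 0.349, although the libraries did not overlap, as was the case, on the higher side, for 9.16% of all tested genes. When only the 8 libraries of these conditions were fitted, the same difference passed, with a log2 fold change of 0.16 and an adjusted p of 0.0153.

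Ccl7, which also attracts monocytes through Ccr2, started from a level like that of Ccl2, with a smaller SD between libraries (1.55 against 3.88 CPM in BSA (control)). It measured 20.3, 19.4, 20.3 and 22.9 CPM in BSA (control) and 76.5, 69.3, 76.3 and 82.3 CPM with IL-1β. Palmitate libraries held 203, 195, 209 and 211 CPM, and palmitate + IL-1β libraries 220, 219, 205 and 205 CPM. The last 2 conditions overlapped with each other, while both lay above IL-1β, which lay above BSA (control). Palmitate raised Ccl7 9.88-fold (95% interval 9.13 to 10.7) and IL-1β 3.68-fold (3.40 to 3.98). Adding IL-1β to palmitate gave a ratio of 1.04 (0.969 to 1.11, adjusted p = 0.578). By p-value, Ccl7 was ranked 7 of 16306 genes for palmitate and 6 for IL-1β.

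Ccl8, which in mice binds Ccr8, had a smaller fold change with IL-1β, with an interval below those of Ccl2 and Ccl7. BSA (control) libraries held 2.66, 2.71, 3.47 and 3.29 CPM, and IL-1β libraries 4.38, 4.96, 6.20 and 3.81 CPM. Palmitate libraries held 23.4, 27.2, 28.8 and 26.1 CPM, and palmitate + IL-1β libraries 28.3, 24.9, 21.8 and 25.9 CPM. The IL-1β and BSA (control) libraries were close but did not overlap, at a 1.63-fold difference (95% interval 1.32 to 2.00, adjusted p = 0.00135), whereas palmitate raised Ccl8 8.78-fold (7.41 to 10.4). The conditions with palmitate overlapped each other, at a ratio of 0.954 (0.836 to 1.09, adjusted p = 0.735).

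Ccl11, or eotaxin, attracts eosinophils through Ccr3, and it was the only member not called with IL-1β against BSA (control). It had 6 to 12 counts per library in BSA (control), where it measured 0.178, 0.388, 0.420 and 0.419 CPM, and 7 to 10 counts with IL-1β, at 0.368, 0.390, 0.222 and 0.414 CPM. The ratio of IL-1β to BSA (control) was 0.992 with a 95% interval of 0.594 to 1.66 (adjusted p = 0.989), so changes within that interval were not excluded. With palmitate it measured 2.72, 1.99, 3.27 and 3.08 CPM, a 7.74-fold rise (5.40 to 11.1). With both agents it measured 1.64, 2.12, 1.41 and 1.58 CPM, and 1 of these libraries overlapped the palmitate libraries. Ccl11 was the only member called between palmitate + IL-1β and palmitate, at a log2 fold change of -0.67 (SE 0.20, adjusted p = 0.0246), or a ratio of 0.628. That call was lost when any 1 of palmitate replicates 9, 11 and 12 or palmitate + IL-1β replicates 13, 15 and 16 was left out, with adjusted p of up to 0.110 and log2 fold changes between -0.67 and -0.57.

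Ccl5, or RANTES, attracts T cells and monocytes. Its BSA (control) libraries held only 4 to 14 counts, at 0.355, 0.129, 0.534 and 0.350 CPM. IL-1β libraries stood at 2.78, 2.03, 2.82 and 1.57 CPM, palmitate libraries at 41.7, 41.7, 41.9 and 47.3 CPM, and palmitate + IL-1β libraries at 41.7, 44.3, 40.3 and 36.1 CPM. The levels formed 3 separate ranges, since the conditions with palmitate overlapped. Palmitate raised Ccl5 127-fold (95% interval 101 to 161), the largest fitted change among the members, and IL-1β raised it 6.89-fold (4.70 to 10.1). Palmitate exceeded IL-1β 18.5-fold (log2 difference 4.21, SE 0.12). The ratio of both agents to palmitate was 0.942 (0.836 to 1.06, adjusted p = 0.611).

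Ccl9, a ligand of Ccr1 found in rodents, measured 1.95, 1.42, 1.45 and 2.13 CPM in BSA (control). IL-1β libraries held 5.40, 5.62, 5.86 and 5.76 CPM, palmitate libraries 22.8, 20.3, 20.0 and 19.4 CPM, and palmitate + IL-1β libraries 19.0, 21.1, 18.1 and 17.2 CPM. Again only the conditions with palmitate overlapped. The rise was 3.24-fold with IL-1β (2.73 to 3.85) and 11.8-fold with palmitate (10.1 to 13.6), and the ratio of both agents to palmitate was 0.917 (0.824 to 1.02, adjusted p = 0.350).

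Ccl20, which attracts Ccr6-bearing T helper 17 cells and dendritic cells, was at or near the counting limit in BSA (control), with 4, 0, 1 and 1 counts. IL-1β libraries held 59, 39, 41 and 23 counts, at 2.41, 1.52, 1.30 and 0.953 CPM. Palmitate libraries stood at 2.82, 2.35, 1.98 and 3.16 CPM, and palmitate + IL-1β libraries at 2.95, 2.45, 2.99 and 3.06 CPM. All treated libraries were above all BSA (control) libraries, and the highest IL-1β library lay within the palmitate range. From the pooled counts of each condition, the level relative to BSA (control) was 30.5-fold with IL-1β (exact 95% counting interval 13.7 to 84.4), 49.2-fold with palmitate (22.4 to 135) and 57.0-fold with both (25.9 to 156). Those intervals cover counting error only. Of the 6 BSA (control) counts, 4 were in replicate 1, and when single libraries were left out the fitted log2 fold change ran from 4.43 to 5.82 for IL-1β, from 5.14 to 6.53 for palmitate and from 5.31 to 6.70 for both, with the lowest without BSA (control) replicate 2 and the highest without replicate 1. Ccl20 was the member in which IL-1β came closest to palmitate, with a palmitate to IL-1β ratio of 1.65 (1.21 to 2.23, adjusted p = 0.0104). Without IL-1β replicate 8 that adjusted p was 0.0506.

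**Figure D1:**
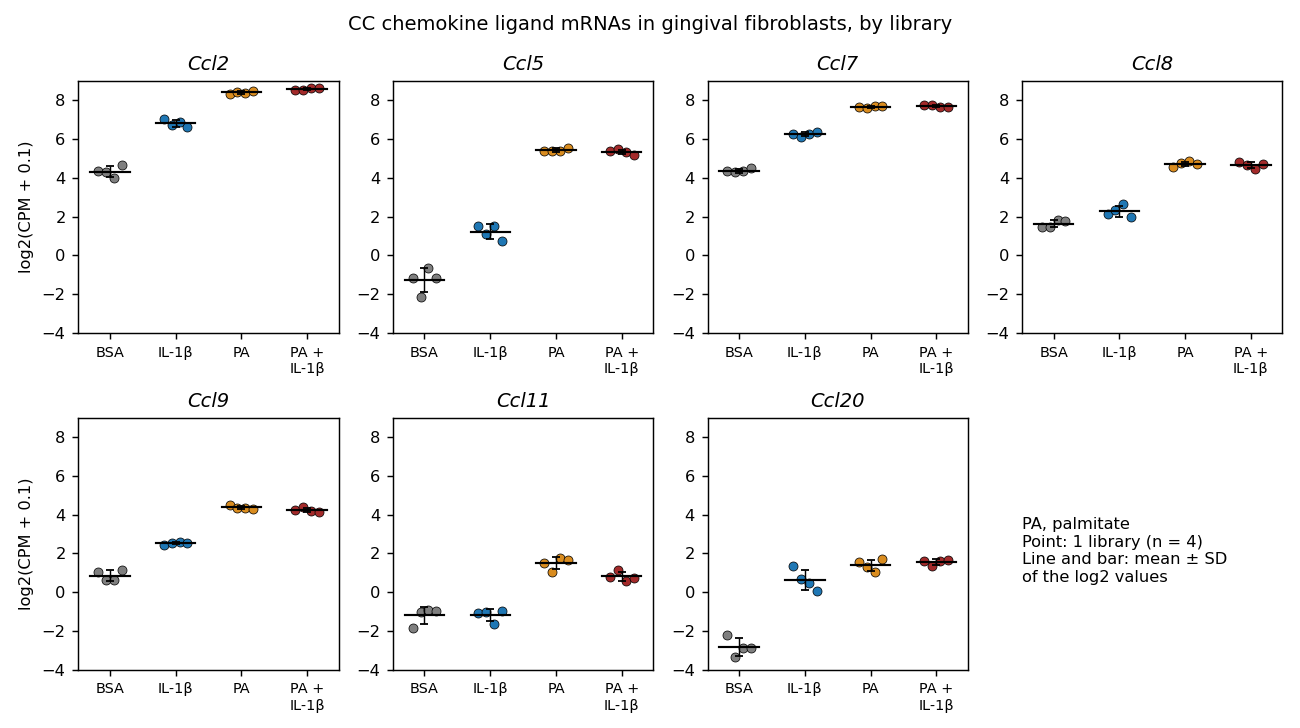
Level of each member in every library on a log2 axis of CPM plus 0.1, by condition, with the mean and SD of 4 libraries. The 4 palmitate libraries and the 4 palmitate + IL-1β libraries stand above the BSA (control) libraries for all 7 genes, and Ccl11 is the only one whose IL-1β and BSA (control) libraries overlap.

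Across the set, palmitate raised 7 of 7 members, and no palmitate library overlapped a BSA (control) library, where 19.8% of all tested genes were called higher and 19.5% lay higher without overlap. IL-1β raised 6 of 7, all but Ccl11, beside 10.1% of all tested genes, and the same 6 lay higher without overlap, beside 11.1%. Palmitate + IL-1β raised 7 of 7, beside 24.8%. Among the 4 members that were over the filter in every library (Ccl2, Ccl7, Ccl8 and Ccl9), 4 of 4 were higher in each of these comparisons. The median log2 fold change of the members was 3.55 for palmitate, 1.88 for IL-1β and 3.43 for both, against medians of all tested genes between -0.0049 and 0.0017. These 3 comparisons share the BSA (control) libraries. Among all calls in either direction, the share that were higher was 53.1% for palmitate, 67.1% for IL-1β and 52.4% for both, and 37.1%, 43.5% and 38.7% under upper-quartile normalization, which changed no call of a member.

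Palmitate was also above IL-1β in 7 of 7 members, beside 16.5% of all tested genes, by factors from 1.65 for Ccl20 and 2.69 for Ccl7 to 18.5 for Ccl5. Palmitate + IL-1β exceeded IL-1β in 7 of 7, beside 18.9%. The smallest of those differences was Ccl20, at a log2 fold change of 0.89 (SE 0.21, adjusted p = 0.00131). The 4 IL-1β libraries lay below the palmitate + IL-1β libraries in 7 of 7 members, beside 16.7% of all tested genes. Between palmitate + IL-1β and palmitate, 0 of 7 members were called higher, beside 5.71% of all tested genes, and 1 of 7 was called lower, beside 4.1%. At an unadjusted p under 0.05 edgeR also gave 0 higher, as did DESeq2 after adjustment. Intervals of the other 6 ratios ran from 0.824 at the lowest to 1.49 at the highest.

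**Figure D2:**
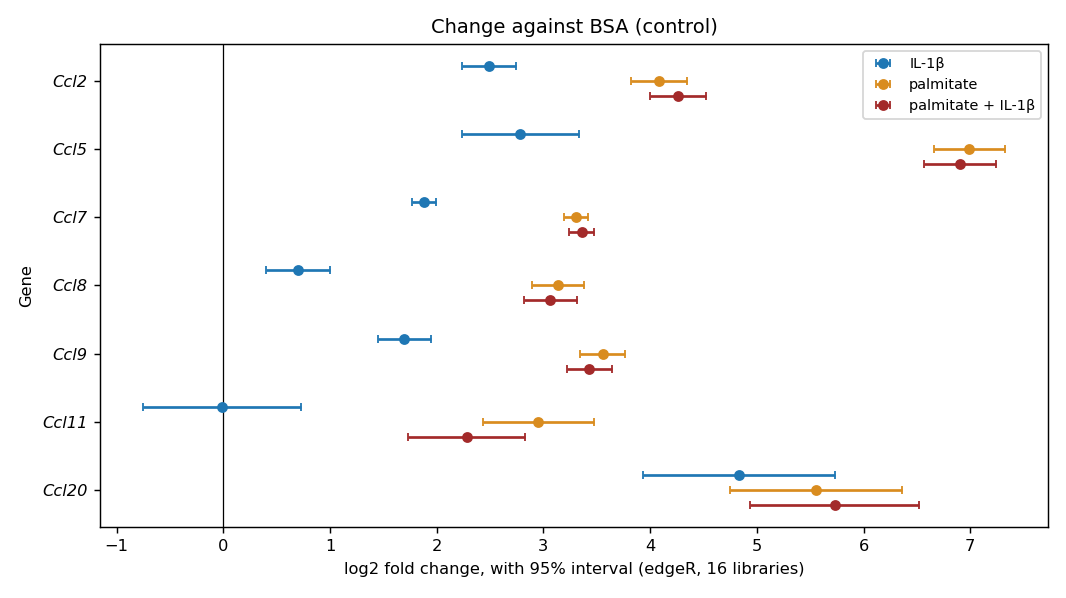
Log2 fold change of each member against BSA (control) for IL-1β, palmitate and palmitate + IL-1β, with the 95% interval of the fit. The palmitate and palmitate + IL-1β values lie side by side for all genes but Ccl11, where they are 2.95 and 2.28. The IL-1β values lie to their left, and Ccl11 with IL-1β sits at -0.01.

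The interaction term asks whether the effect of one agent differed with and without the other on the log2 scale. It was negative and called in 6 of 7 members, beside 1.83% of all tested genes. IL-1β alone raised Ccl2 by 2.49 on the log2 scale and added 0.17 on top of palmitate, an interaction of -2.31 (SE 0.15, adjusted p = 4.1e-07). For Ccl7 the interaction was -1.82 (SE 0.07, adjusted p = 7.8e-18), ranked 3 by p-value among all tested genes, and for Ccl9 it was -1.82 (SE 0.14). Ccl5 had -2.87 (SE 0.28) and Ccl20 -4.66 (SE 0.51), the latter resting on the 6 counts of its BSA (control) libraries. Ccl8, with its small IL-1β response, had -0.77 (SE 0.17, adjusted p = 0.0128), which was lost without BSA (control) replicate 1 or 2 (adjusted p of 0.0643 and 0.0580). Ccl11 had -0.66 (SE 0.42, adjusted p = 0.653).

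**Figure D3:**
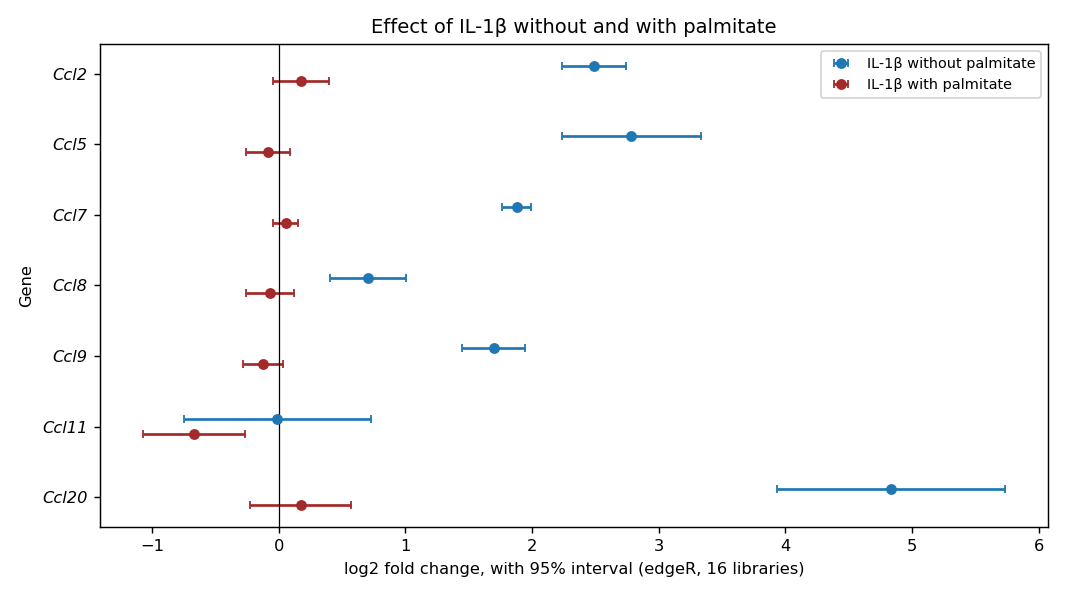
Log2 fold change on adding IL-1β in the absence of palmitate and in its presence, for each member, with 95% intervals. Without palmitate 6 of the 7 values lie above 0, and with palmitate 6 of the 7 intervals include 0, the exception being Ccl11 at -0.67.

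On the linear scale the same 4 means were set against simple addition of the separate rises over BSA (control), with no test. For Ccl2, IL-1β added 93.3 CPM without palmitate and 44.2 CPM with it, and the observed 387 CPM departed from the additive 436 CPM by -49.0 ± 13.0 CPM (SE). For Ccl7 the additions were 55.4 and 7.59 CPM and the departure was -47.8 ± 6.25 CPM. The departure was -4.54 ± 2.23 CPM for Ccl5, -2.95 ± 1.85 for Ccl8, -5.70 ± 1.13 for Ccl9, -1.07 ± 0.327 for Ccl11 and -1.22 ± 0.430 for Ccl20. All 7 estimates were below simple addition, but that of Ccl8 was within 2 SE of 0. When single libraries were left out, the departure of Ccl8 ran from -4.06 to -1.80 CPM and that of Ccl5 from -5.87 to -3.02 CPM, the smallest being without palmitate + IL-1β replicate 15 for Ccl8 and replicate 16 for Ccl5.

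The ratio of Ccl7 to Ccl2 counts, which does not depend on library size, asks whether these neighbours moved by the same factor. It was 1.00, 0.998, 1.28 and 0.907 in the BSA (control) libraries, and 0.578, 0.642, 0.657 and 0.846 with IL-1β. Palmitate libraries had 0.620, 0.572, 0.617 and 0.580, and palmitate + IL-1β libraries 0.584, 0.586, 0.506 and 0.522. Every treated library lay below every BSA (control) library, so the fold rise of Ccl2 was the larger of the pair in each treated condition. The mean log2 ratio fell by 0.62 with IL-1β, by 0.80 with palmitate and by 0.92 with both, each at p = 0.0286, the smallest that a two-sided exact permutation test of 4 against 4 libraries can give. Adjusted over the 6 pairs of conditions these exact permutation values became 0.0571, which does not pass 0.05. The 3 pairs of treated conditions overlapped, with adjusted p from 0.129 to 0.171 by the same exact test.

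**Figure D4:**
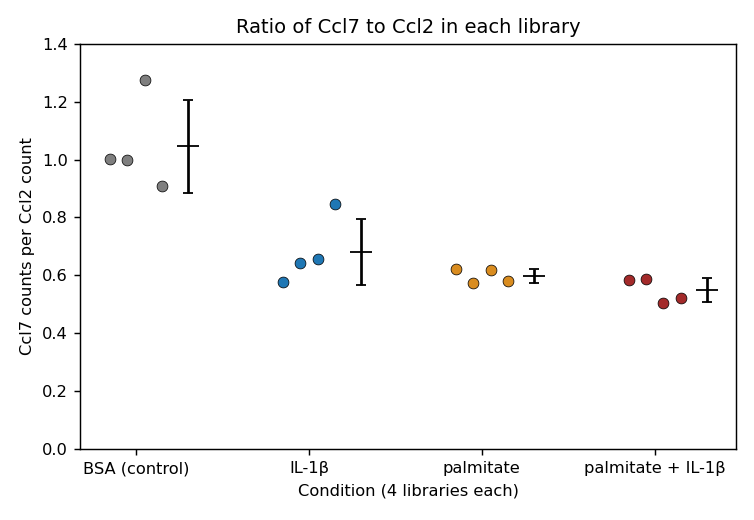
Counts of Ccl7 per count of Ccl2 in each of the 16 libraries, with the mean and SD of 4 libraries beside them. The BSA (control) libraries lie between 0.907 and 1.28 and the other 12 libraries between 0.506 and 0.846.

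To compare genes with each other, CPM was divided by the length of the annotated transcript in kb. In BSA (control) the order was Ccl7 at 25.7 ± 1.91 CPM per kb (SD, n = 4), Ccl2 at 24.8 ± 4.77, Ccl8 at 5.89 ± 0.788, Ccl5 at 0.639 ± 0.310, Ccl9 at 0.578 ± 0.119, Ccl11 at 0.315 ± 0.105 and Ccl20 at 0.0597 ± 0.0625. Ccl7 and Ccl2 overlapped, and Ccl5 overlapped both Ccl9 and Ccl11. With palmitate the order became Ccl2 at 422 ± 19.0, Ccl7 at 254 ± 8.90, Ccl5 at 80.7 ± 5.17, Ccl8 at 51.2 ± 4.42, Ccl9 at 6.85 ± 0.493, Ccl20 at 3.21 ± 0.647 and Ccl11 at 2.49 ± 0.505 CPM per kb, with only the last 2 overlapping. When all annotated exons were counted as length, Ccl5 came to 42.0 CPM per kb under palmitate, below Ccl8, and Ccl20 to 1.81, below Ccl11. By that length in BSA (control), Ccl5 came to 0.333 CPM per kb, below Ccl9 at 0.559. These positions thus depend on which transcript is made.

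The summed level of the 7 was 58.0 ± 6.63 CPM per kb in BSA (control), 252 ± 19.7 with IL-1β, 820 ± 31.0 with palmitate and 875 ± 7.35 with both (SD, n = 4). The lowest palmitate + IL-1β library, at 865, lay above the highest palmitate library, at 863. Between these conditions Ccl2, whose difference was not called in the fit of all 16 libraries, went from 422 to 476 CPM per kb. The means of Ccl7 and Ccl20 were also higher with both agents, while those of Ccl5, Ccl8, Ccl9 and Ccl11 were lower. The sum thus followed its largest member and does not describe each of the 7. The share of Ccl5 in that sum was 1.11% ± 0.591 in BSA (control), 1.69% ± 0.346 with IL-1β, 9.84% ± 0.302 with palmitate and 8.67% ± 0.695 with both. Ccl8 held 10.2% ± 1.64 in BSA (control) and 3.74% ± 0.766 with IL-1β, and Ccl7 went from 44.4% ± 2.10 in BSA (control) to 30.9% ± 0.836 with palmitate. Ccl2 and Ccl7 remained the most abundant members in every condition. Sums and shares rest on the length of 1 annotated transcript per gene. With all annotated exons as length, Ccl5 under palmitate came to 42.0 CPM per kb and Ccl2 to 301, while Ccl7 stayed at 254, so the shares depend on that choice. These sums and shares are descriptions and were not tested.

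**Figure D5:**
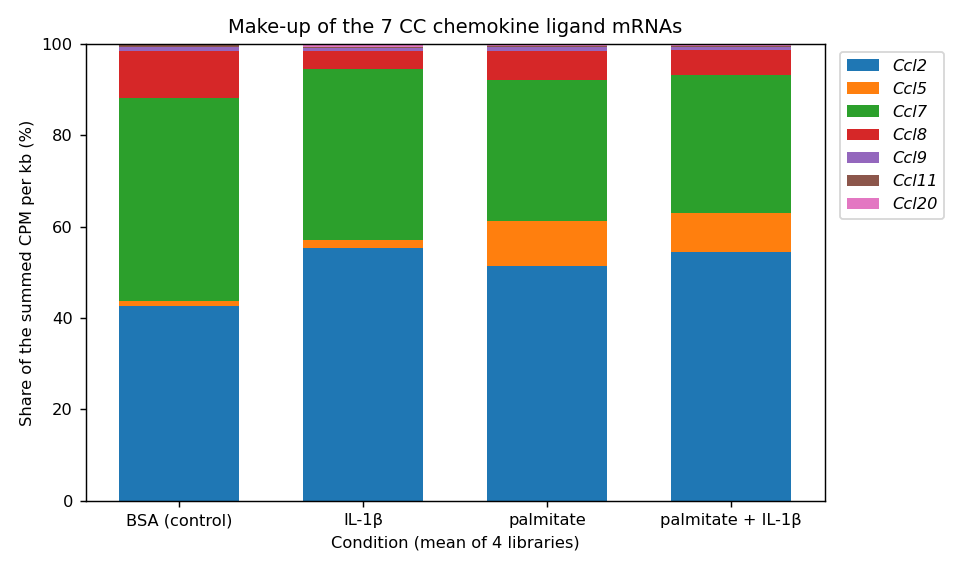
Share of each member in the summed CPM per kb of the 7 genes, as the mean of 4 libraries per condition. Lengths are those of 1 annotated transcript per gene. The Ccl5 segment is 1.11% in BSA (control), 1.69% with IL-1β, 9.84% with palmitate and 8.67% with both agents.

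Promoter sequence is shown because most of the members rose in the same conditions. RefSeq windows (GRCm38.p6 table) matched 3 of the 7 genes, Ccl8, Ccl9 and Ccl20, and Ccl2, Ccl5, Ccl7 and Ccl11 had no match. Each window holds 250 bases before the RefSeq start, of which the last 120 are printed 5′ to 3′ on the gene's strand, with their position in GRCm39 found by exact match. Capitals mark matches, on either strand, to TATAAA and to a loose κB motif, GGG and CC with any 5 bases between, that was chosen after the sequences were seen.
Ccl20 (chr1:83094367-83094486, forward): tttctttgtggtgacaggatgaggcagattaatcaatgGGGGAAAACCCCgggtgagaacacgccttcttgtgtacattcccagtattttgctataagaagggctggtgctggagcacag
Ccl9 (chr11:83469463-83469582, reverse): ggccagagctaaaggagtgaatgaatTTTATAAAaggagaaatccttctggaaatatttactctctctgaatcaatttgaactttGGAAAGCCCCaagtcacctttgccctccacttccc
Ccl8 (chr11:82005891-82006010, forward): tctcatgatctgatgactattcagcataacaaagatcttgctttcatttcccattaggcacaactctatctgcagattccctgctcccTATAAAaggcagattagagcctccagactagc
The stricter canonical κB motif occurred in Ccl20, 80 to 71 bases before the start, and in Ccl9, 35 to 26 bases before it, both on the reverse of the gene's strand, and these letters were not in the Ccl8 window. Of 32851 RefSeq windows of this length, 7.25% held the canonical κB motif and 45.8% held the loose one, which contains it, with overlapping matches counted once. TATAAA stood 32 to 27 bases before the Ccl8 start and in the Ccl9 window, beside 12.4% of all windows. TGANTCA, an AP-1 motif, occurred in Ccl9 alone, 53 to 47 bases before the start (6.75% of windows). Neither an interferon response core, GAAA repeated after any 2 bases (2.98%), nor TTCNNNGAA, a STAT motif (7.02%), was in any of the 3 windows. These matches describe letters, not bound sites. The RefSeq start of Ccl9 lies inside the gene as annotated in GENCODE, downstream of another start.

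Genes with patterns nearest to each member were sought among 11822 genes of average log2 CPM of at least 1, by the root mean square (RMS) difference of centred mean log2 CPM over the 4 conditions. Nearest to Ccl2 were Icosl, the ligand of the T cell costimulator ICOS (RMS 0.19), Gm55977 (0.25) and Vcam1, an adhesion molecule for leukocytes (0.28). Nearest to Ccl9 were Vcam1 (0.13), Adtrp (0.13) and Serpina3i (0.18), and nearest to Ccl7 were Adtrp (0.11), Slfn2 (0.17) and the cytokine gene Lif (0.18). Ccl5 was nearest to interferon-inducible genes, namely Cxcl9 (0.18), the guanylate-binding protein gene Gbp5 (0.23) and Tgtp2 (0.28). Ccl8 was nearest to Cdhr1 (0.08), Ifih1, which encodes the RNA sensor MDA5 (0.12), and Gm15987 (0.12). Ccl11 was nearest to Cebpd, a C/EBP transcription factor gene (0.21), Acpp (0.24) and Socs3, a feedback inhibitor of cytokine signalling (0.25). Ccl20 had the most distant neighbours, the CXC chemokine genes Cxcl1 (0.41) and Cxcl10 (0.45) and Icosl (0.49).

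Of 17 other CC ligand genes, 4 passed the filter. Of these 4, 1 was called higher with palmitate and 1 with both agents, beside 19.8% and 24.8% of all tested genes. These counts were near those shares. The gene was Ccl17 each time, with palmitate (log2 fold change 1.85, SE 0.32, adjusted p = 1.8e-05) and with both agents (1.73, SE 0.32). Ccl17 attracts Ccr4-bearing T cells, and it measured 0.413 ± 0.203 CPM in BSA (control), 0.379 ± 0.200 with IL-1β, 1.48 ± 0.216 with palmitate and 1.35 ± 0.404 with both (SD, n = 4). Of the 4, 0 were called by edgeR with IL-1β against BSA (control), beside 10.1% of all tested genes higher and 4.97% lower. At an unadjusted p under 0.05, 1 of them was lower. Ccl28, a mucosal chemokine, fell with both agents by 0.32 on the log2 scale (SE 0.10, adjusted p = 0.00954). It was the 1 of 4 called lower there, beside 22.5% of all tested genes. Ccl25 and Ccl27a differed by 0.23 (SE 0.12, adjusted p = 0.125) and -0.45 (SE 0.25, adjusted p = 0.150). Ccl12, which lies between Ccl11 and Ccl8 on chromosome 11, had 0 counts in BSA (control) and IL-1β and 5 counts each, summed over 4 libraries, with palmitate and with both agents. Ccl6, next to Ccl9, had 2 to 5 counts per condition in sum. The macrophage inflammatory protein genes Ccl3 and Ccl4 had at most 20 and 0 counts in sum in any condition.

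None of the 11 CC receptor genes passed the filter, and their summed level was 0.114 to 0.675 CPM per library. Ccr6, the receptor of Ccl20, was at 0 counts in all 16 libraries, which allows up to 0.0331 to 0.146 CPM. Ccr2, the receptor of Ccl2 and Ccl7, had at most 1 count in a library, and so did Ccr8. Ccr1 had at most 2 counts. Ccr3, the receptor of Ccl11, had 3 counts in sum in BSA (control), 11 with IL-1β, 54 with palmitate and 34 with both. A single library held 8 of the 11 and another 32 of the 54. In CPM, which allows for depth, its means were 0.0249 ± 0.0312, 0.0938 ± 0.112, 0.314 ± 0.0484 and 0.269 ± 0.201 (SD, n = 4), in that order.

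Of 6 genes listed as atypical receptors, most of which bind chemokines without signalling migration, 5 were tested. Pitpnm3, which was listed with them, is instead known as a signalling receptor for a human CC chemokine. With palmitate, 3 of the 5 were called higher, beside 19.8% of all tested genes, and 1 lower, beside 17.5%. Of those 3, Ackr2 and Ccrl2 were over the filter's cutoff in 0 BSA (control) and 0 IL-1β libraries and passed it only through the conditions with palmitate, so their values are descriptive. Ackr2, a scavenger of inflammatory CC chemokines, measured 0.0773 ± 0.0940 CPM in BSA (control), 0.168 ± 0.0788 with IL-1β, 0.587 ± 0.237 with palmitate and 0.967 ± 0.170 with both. It was over 5 counts in no BSA (control) library. Pitpnm3 went from 1.81 ± 0.182 CPM in BSA (control) to 3.61 ± 0.382 with palmitate and 6.73 ± 0.387 with both, and it was called higher with both agents than with palmitate (log2 fold change 0.88, SE 0.11). Ccrl2 measured 0.0653 ± 0.109 CPM in BSA (control), 0.201 ± 0.124 with IL-1β, 0.666 ± 0.165 with palmitate and 0.728 ± 0.0257 with both. Ackr3, which scavenges CXC chemokines, fell by 0.68 (SE 0.11) on the log2 scale with both agents against BSA (control). Its level was 6.15 ± 0.569 CPM in BSA (control) and 3.82 ± 0.590 with both. With IL-1β alone it was already 3.80 ± 0.325 CPM, and with palmitate alone 4.52 ± 0.288.

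Among the 9 tested of 13 proteases that can trim chemokines, 5 rose and 2 fell with palmitate, beside 19.8% and 17.5% of all tested genes. With IL-1β 3 rose, beside 10.1%, and with both agents 4 rose and 2 fell, beside 24.8% and 22.5%, so the falls were near the share over all genes. The matrix metalloproteinase genes Mmp3 and Mmp13 had the smallest adjusted p, with log2 fold changes of 2.32 (SE 0.07) and 1.72 (SE 0.06) for both agents against BSA (control). Mmp3 measured 46.0 ± 1.92 CPM with palmitate alone and 43.1 ± 1.95 with both. Mmp13 measured 52.5 ± 2.20 and 56.6 ± 5.66 CPM in the same order. Of 10 heparan sulfate proteoglycans, 3 rose and 5 fell with both agents, beside 24.8% and 22.5% of all tested genes. Between BSA (control) and both agents, the syndecan gene Sdc4 rose from 45.4 ± 1.89 to 118 ± 8.58 CPM, and Sdc1 fell from 243 ± 14.6 to 174 ± 6.42 CPM. With palmitate alone Sdc4 stood at 117 ± 4.78 and Sdc1 at 183 ± 3.06 CPM. With IL-1β alone they stood at 55.5 ± 3.79 and 217 ± 9.56 CPM.

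Of 21 transcription factor genes with a known role at CC chemokine promoters, 16 rose and 1 fell with palmitate, beside 19.8% and 17.5% of all tested genes. With IL-1β 12 rose, beside 10.1%, and with both agents 18 rose and 1 fell, beside 24.8% and 22.5%. Their median log2 fold changes were 0.79, 0.33 and 1.10, against medians near 0 for all tested genes. The interaction was negative and called in 9 of 21, beside 1.83%. Nfkbiz, which encodes the NF-κB cofactor IκBζ, went from 16.5 ± 1.54 CPM in BSA (control) to 42.8 ± 1.16 with IL-1β, 83.5 ± 2.59 with palmitate and 100.3 ± 6.32 with both. Cebpb rose by 1.69 (SE 0.05), Nfkb1 by 1.30 (SE 0.05) and Nfkb2 by 1.17 (SE 0.04) on the log2 scale with both agents against BSA (control).

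Of 11 genes for factors that control the decay of cytokine mRNAs, 6 rose with palmitate, 5 with IL-1β and 7 with both, beside 19.8%, 10.1% and 24.8% of all tested genes. In these comparisons 0 fell by edgeR, also at an unadjusted p under 0.05, beside 17.5%, 4.97% and 22.5%. Zc3h12a, which encodes the endonuclease regnase-1, measured 6.48 ± 0.448 CPM in BSA (control), 19.2 ± 0.965 with IL-1β, 47.2 ± 2.38 with palmitate and 46.2 ± 2.75 with both. As in Ccl7, the level with both agents was not called against palmitate (log2 fold change -0.03, SE 0.05, adjusted p = 0.809), and its interaction was -1.60 (SE 0.09). Zfp36l2 and Zc3h12c rose above palmitate when IL-1β was added, by 0.24 (SE 0.04) and 0.47 (SE 0.06) on the log2 scale. In that comparison 2 of the 11 were called higher, beside 5.71% of all tested genes. Another 1 was called lower, beside 4.1%, and 8 were not called.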

How the data were processed

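Counts of 16 bulk RNA libraries were analysed, 4 per condition, grouped by the GEO labels. Per the paper's methods and the labels, the authors trimmed reads with Trimmomatic 0.39, aligned them with STAR 2.7.10a to GRCm39 with GENCODE vM33 genes and counted them by strand with HTSeq 2.0.9. The deposited values are raw counts. Methods and labels name different library kits, an oligo(dT)-primed and a stranded total RNA one. The 5 HTSeq summary rows, 18.3% to 21.4% of each library, were left out.

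Counts were tested with edgeR 4.0.16 (R 4.3.3; TMM, filterByExpr with a minimum count of 10, robust quasi-likelihood), with a mean per condition, 7 contrasts and Benjamini-Hochberg adjustment. SEs are the log2 fold change divided by the square root of F. DESeq2 1.42.0, other normalizations, filters, sample sets and leaving out each library were the alternatives. Scripts were tested on simulated data. Floors (3 counts) and counting intervals cover counting error only. The replicates of each condition differed beyond sampling noise (chi-square per degree of freedom 2.64 to 18.7 over 24 pairs). Positions are from GENCODE vM39 (GRCm39), and promoters from RefSeq.

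The members and the gene lists were chosen with earlier results of these data known. All members are given. From each list at most 4 genes with the smallest adjusted p for palmitate + IL-1β against BSA (control) are named, plus receptors of members, of which 1 is not reported here. Ccl3, Ccl4, Ccl6, Ccl12, Csf1r and Ptprc were picked after their values were seen.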

Additional observations from a re-analysis of the deposited data

Results flagged for a closer look

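By edgeR's interaction test, palmitate had a different effect in the presence of IL-1β in 6 of the 7 members, lower in each, beside 1.83% of all tested genes. The log2 terms were -2.31 for Ccl2, -2.87 for Ccl5, -1.82 for Ccl7, -0.77 for Ccl8, -1.82 for Ccl9 and -4.66 for Ccl20. The call for Ccl8 was lost without BSA (control) replicate 1 or 2 (adjusted p of 0.0643 and 0.0580 by edgeR), which left 5 of 7, and Ccl5 and Ccl20 passed the filter on low counts through treated conditions.

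Single libraries stood apart from the other 3 of their condition in 2 of 28 member and condition groups, where chance gives about 1 in 20. Ccl5 was at 47.3 CPM in palmitate replicate 12, while the other palmitate libraries lay between 41.7 and 41.9 CPM. Ccl11 was at 0.178 CPM in BSA (control) replicate 1, while the others lay between 0.388 and 0.420 CPM. Both genes were still called higher with palmitate when these libraries were left out.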

How the results depend on the processing

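The alternatives gave 1099 log2 fold changes (7 members, 7 comparisons). Of these, 1084 kept their direction or stayed uncalled on the same side of the threshold. Another 14 lost the call, 1 gained it and 0 reversed. The values held to an absolute log2 fold change over 1 came from the main fit, so their direction could not change. Among them 44 stayed on the same side and 5 lost the call. Requiring at least 10 counts in every library kept only Ccl2, Ccl7, Ccl8 and Ccl9 for testing, so 4 members were called in the comparisons of palmitate and of both agents with BSA (control) and with IL-1β, and 0 between palmitate + IL-1β and palmitate. In that last comparison 0 were called with an absolute log2 fold change over 1, 2 (Ccl11 and Ccl2) when only its 8 libraries were fitted, and 0 to 1 when single libraries were left out. The cause was not tested. The size threshold also lowered the counts over all tested genes, from 6083 to 934 for palmitate, 2464 to 170 for IL-1β and 7705 to 1256 for both against BSA (control), from 1599 to 69 for both against palmitate, 5712 to 756 for both against IL-1β, 5156 to 684 for palmitate against IL-1β and 324 to 71 for the interaction. DESeq2 and RLE or upper-quartile normalization changed no call of a member. Departures from addition and Ccl7 to Ccl2 ratios kept their sign. Leaving out 1 library leaves 3 against 4, and those ratios were compared by size alone, without a p-value. No paired analysis was possible because each library has its own number, from 1 to 16. Depth limits Ccl20, Ccl5 and Ccl11 in BSA (control) and the receptors.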
